A study of Mus musculus with 18 samples.

Results

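Hgs encodes Hrs, an endosomal ESCRT protein that sorts ubiquitinated membrane proteins towards multivesicular bodies. The 10 genes described here are Shisa2, Lmo1, Nwd1, Pard6g, Unc13b, Podxl2, Tcf7l1, Adck3, Tph2 and Nxn, out of 23453 symbols in the count table. They were chosen because their counts were lower in B16F10 tumours with an shRNA against Hgs (shHrs) than in tumours with a scrambled shRNA (shCTL). That choice used the tumour values, so the tumour differences below are a description and carry no test. The cultured cells were tested. They were not part of the choice as stated, but it was made with earlier results of these data known. The culture tests are thus not independent of the choice. All 10 genes were in the table and all passed the filter on low counts in each comparison.

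B16F10 is an established melanoma line from C57BL/6 mice. Lentivirus made from pLKO.1 carried the shRNAs, and infected cells were selected with puromycin or blasticidin for 5 days. The labels do not say whether the lines were pools or single clones. RNA of whole tumours came from 5 shHrs and 5 shCTL tumours, which the labels call both xenograft and homograft, grown in immunocompetent wild-type C57BL/6 females of 6 to 8 weeks. Total RNA of cultured cells came from 2 batches, each with 2 shHrs and 2 shCTL libraries. Every group, controls included, carries a lentiviral shRNA. The host animals keep their own Hgs, since the knockdown is in the implanted cells alone. The protocol counts 4 biological repeats for cells and 5 for tumours without saying how the cultures of a batch were kept apart, so p-values measure the spread between these libraries.

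Total counts ran in tumours over 18.8 to 27.7 M (M, mega) with shHrs and 17.6 to 22 M with shCTL, and in cultures over 18.5 to 27.6 M with shHrs and 18.6 to 25.3 M with shCTL. Levels are CPM, counts per M of library size, with library sizes scaled over all 18 libraries, and fold changes are log2 of shHrs over shCTL with their standard error (SE). Hgs itself stood at 24.1, 17.1, 21, 29.8 and 16.3 CPM in shHrs tumours, against 107, 98.5, 113, 109 and 95.6 CPM in shCTL tumours. In batch 1 it stood at 35.7 and 29.7 CPM with shHrs, against 95.0 and 115 CPM with shCTL, and in batch 2 at 43.2 and 40.1 CPM with shHrs, against 98.9 and 106 CPM with shCTL. Every shHrs library was thus below every shCTL library of its kind, in accord with its label. The Hgs fold change was -2.28 (SE 0.16, adjusted p = 0.000106) in tumours and -1.30 (SE 0.22, adjusted p = 0.0268) in batch 2 by edgeR's quasi-likelihood test, where 0 genes were called when any batch 2 library was left out. In batch 1 it was -1.67 (SE 0.22) and did not pass the 0.05 threshold (adjusted p = 0.103, edgeR).

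The 10 genes belong to no single pathway. Tcf7l1 is a TCF/LEF factor that holds Wnt target genes down when beta-catenin is scarce, and Nxn (nucleoredoxin) is a thioredoxin-fold protein that binds Dishevelled and restrains Wnt signalling. Shisa proteins, studied first in frog embryos, keep immature Frizzled and FGF receptors in the endoplasmic reticulum. Pard6g is a scaffold of the PAR3 and atypical protein kinase C polarity complex, Podxl2 (endoglycan) is a CD34-family sialomucin, and Unc13b (Munc13-2) primes secretory vesicles for fusion. Tph2 is the rate-limiting enzyme of serotonin synthesis in brain neurons, and Adck3 (Coq8a) is an atypical kinase-like protein of mitochondria needed for coenzyme Q synthesis. Lmo1 is a LIM-only adaptor that bridges transcription factors and is an oncogene in human T-cell leukaemia. Nwd1 carries a NACHT domain and WD40 repeats.

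Because Tcf7l1 is among the members, promoters were searched for the TCF core letters CTTTGA or CTTTGT on either strand. RefSeq promoter windows (GRCm38.p6, 300 bases around a start) were matched by symbol for 9 of the 10 genes, in 13 windows. The core was present for 5 of 9 genes, namely Lmo1, Unc13b, Podxl2, Tcf7l1 and Adck3, against 34.5% of 27025 genes with windows. Its share of single windows was 31.2% of 32851. The MITF box, CATGTG or CACGTG on either strand, was present for 1 of 9 genes, Unc13b, against 22.7% of all genes. These letters do not overlap the TCF core, and a match is a description of the sequence, not a bound site. Median GC content was 62% in the member windows and 52.7% in all windows. The 3 windows below were chosen to show the core at its range of distances, with capitals marking the core as it reads on the gene's strand. The core lies 236 bases before the start in Lmo1 (chr7:109175158-109175457, minus strand, core on the opposite strand). It lies 165 bases before the start in Unc13b (chr4:43058703-43059002, plus strand) and 28 bases before it in Tcf7l1 (chr6:72788996-72789295, minus strand).
Lmo1: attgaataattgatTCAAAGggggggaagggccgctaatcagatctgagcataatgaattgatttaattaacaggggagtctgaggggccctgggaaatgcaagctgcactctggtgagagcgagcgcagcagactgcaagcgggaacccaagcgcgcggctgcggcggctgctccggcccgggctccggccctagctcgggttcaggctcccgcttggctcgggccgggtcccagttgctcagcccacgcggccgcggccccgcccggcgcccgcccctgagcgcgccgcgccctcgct
Unc13b: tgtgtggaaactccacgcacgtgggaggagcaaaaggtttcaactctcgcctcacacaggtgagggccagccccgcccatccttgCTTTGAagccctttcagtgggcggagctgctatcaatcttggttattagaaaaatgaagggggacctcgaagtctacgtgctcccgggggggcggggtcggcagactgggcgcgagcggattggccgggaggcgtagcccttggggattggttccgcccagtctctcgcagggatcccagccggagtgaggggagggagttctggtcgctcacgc
Tcf7l1: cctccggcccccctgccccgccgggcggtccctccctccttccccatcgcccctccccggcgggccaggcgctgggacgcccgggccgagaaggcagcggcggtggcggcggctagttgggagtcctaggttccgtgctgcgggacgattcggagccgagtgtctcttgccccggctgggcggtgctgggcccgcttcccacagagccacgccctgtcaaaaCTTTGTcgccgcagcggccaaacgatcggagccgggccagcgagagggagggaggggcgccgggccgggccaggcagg

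In tumours, each of the 10 genes was lower in all 5 shHrs tumours than in all 5 shCTL tumours. Such a complete separation in the lower direction was found for 298 of 13215 tested genes (2.26%), and edgeR called 41 genes lower (0.310%), the 10 among them, and 31 higher (0.235%). The choice of genes fixed both of these counts. When 1 tumour was left out, edgeR called 5 to 10 of the 10 genes, among 18 to 79 called lower of 13291 to 13410 tested. Those fits reuse the tumours that chose the genes, so these counts are no test of them either. Mean levels in shHrs tumours were from 29.1% (Shisa2) to 54% (Nxn) of those in shCTL tumours. The median fitted fold change of the 10 genes was -1.14, against 0.01 over all tested genes. In a bulk sample, fewer cells that express a gene and less RNA per cell cannot be told apart.

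Among the genes tied to Wnt signalling, Tcf7l1 (chr6:72626378-72789254, minus strand, GENCODE M21 on GRCm38 here and below) stood at 11.6, 16.5, 17.0, 13.5 and 14.2 CPM in shHrs tumours, against 31.2, 23.2, 38.0, 26.6 and 29.5 CPM in shCTL tumours. Its highest shHrs tumour was replicate 3 and its lowest shCTL tumour replicate 2, which lay 1.36-fold apart. The means were 14.6 ± 2.22 CPM with shHrs and 29.7 ± 5.54 CPM with shCTL (SD, n = 5 each), a fold change of -1.03 (SE 0.15). Nxn (chr11:76257198-76399140, minus strand) stood at 21.7, 19.9, 13.4, 22.4 and 23.9 CPM in shHrs tumours, against 45.1, 37.5, 33.4, 37.4 and 34.3 CPM in shCTL tumours. Replicate 3 was the low one among the shHrs tumours, and the other 4 were within 19.9 to 23.9 CPM. The means were 20.3 ± 4.11 CPM with shHrs and 37.5 ± 4.62 CPM with shCTL (SD, n = 5 each), a fold change of -0.90 (SE 0.15).

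Shisa2 (chr14:59625308-59631660, plus strand) stood at 1.65, 0.780, 0.787, 0.567 and 0.821 CPM in shHrs tumours, against 2.28, 3.14, 4.31, 3.58 and 2.54 CPM in shCTL tumours. Its shHrs replicate 1 was the high one, and even so lay below the lowest shCTL tumour by 1.38-fold. With means of 0.922 ± 0.422 CPM in shHrs tumours and 3.17 ± 0.814 CPM in shCTL tumours (SD, n = 5 each), it had the lowest fold change of the 10 (-1.77, SE 0.32). Lmo1 (chr7:109138572-109175207, minus strand) stood at 7.45, 13.9, 5.65, 11.4 and 7.68 CPM in shHrs tumours, against 29.2, 25, 40.8, 18 and 25.3 CPM in shCTL tumours. Both groups spread over more than 2-fold, from highest to lowest 2.46-fold with shHrs and 2.27-fold with shCTL. Means of 9.21 ± 3.34 CPM in shHrs tumours and 27.7 ± 8.40 CPM in shCTL tumours (SD, n = 5 each) gave a fold change of -1.59 (SE 0.27).

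The polarity scaffold Pard6g (chr18:80046890-80119639, plus strand) stood at 6.73, 7.80, 7.62, 3.76 and 5.67 CPM in shHrs tumours, against 13.8, 15, 14.9, 15.5 and 15.1 CPM in shCTL tumours. The shCTL tumours were within 1.12-fold of each other and the shHrs tumours within 2.07-fold, with replicate 4 lowest. The distance between the groups, 1.77-fold, was the widest of the 10 genes, and the fold change was -1.24 (SE 0.18). Podxl2 (chr6:88842558-88875044, minus strand) stood at 3.45, 5.31, 4.13, 5.52 and 3.49 CPM in shHrs tumours, against 8.93, 6.89, 10.4, 8.54 and 10.3 CPM in shCTL tumours. Its groups lay closest of the 10, with 1.25-fold between the highest shHrs and the lowest shCTL tumour, and the fold change was -1.05 (SE 0.19).

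The vesicle-priming gene Unc13b (chr4:43058953-43264871, plus strand) stood at 2.63, 2.39, 2.56, 2.63 and 2.01 CPM in shHrs tumours, against 5.58, 4.54, 5.90, 5.36 and 7.17 CPM in shCTL tumours. The shHrs tumours were within 1.31-fold of each other, the tightest shHrs group of the 10 genes, and the fold change was -1.23 (SE 0.18). Tph2 (chr10:115078641-115185022, minus strand) stood at 7.16, 6.87, 5.41, 7.27 and 8.5 CPM in shHrs tumours, against 14.5, 12.8, 12.3, 12.4 and 13.4 CPM in shCTL tumours. The shCTL tumours were again tight, within 1.17-fold, and the fold change was -0.90 (SE 0.13).

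Adck3 (chr1:180165238-180199602, minus strand) had the highest counts of the set. It stood at 29.8, 47.9, 42.8, 39.7 and 36.4 CPM in shHrs tumours, against 74.9, 89.0, 74.7, 71.9 and 80.3 CPM in shCTL tumours. The means were 39.3 ± 6.81 CPM with shHrs and 78.2 ± 6.78 CPM with shCTL (SD, n = 5 each), and the fold change of -1.0 had the smallest error (SE 0.12). Nwd1 (chr8:72646711-72717876, plus strand) stood at 0.719, 0.884, 1.13, 0.722 and 1.19 CPM in shHrs tumours, against 3.11, 3.14, 2.18, 1.79 and 2.21 CPM in shCTL tumours. At these low levels the groups still lay 1.5-fold apart, and the fold change was -1.42 (SE 0.27).

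No single tumour was lowest or highest throughout. Of the shHrs tumours, replicate 1 was lowest for 4 of the 10 genes, replicate 3 for 3, replicate 4 for 2 and replicate 5 for 1. Among shCTL tumours, replicate 3 was highest for 4 genes. Levels per kilobase of merged exons compare genes only roughly, since the expressed transcripts and the counted annotation are not known. On that scale Lmo1 had 5.93 CPM in shHrs tumours and 17.8 CPM in shCTL tumours. Adck3 had 7.42 CPM per kilobase in shHrs tumours and 14.8 in shCTL tumours, and Nxn had 6.27 with shHrs and 11.6 with shCTL. Nwd1 was lowest on that scale, at 0.077 CPM per kilobase with shHrs and 0.206 with shCTL. Exons of 3 genes share bases with a gene on the opposite strand, namely Podxl2 with Gm15612 (1099 bases), Adck3 with Cdc42bpa (366 bases) and Tcf7l1 with Gm15401 (179 bases). No source used here says whether strand was counted, and reads of these stretches cannot be told apart.

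**Figure D1:**
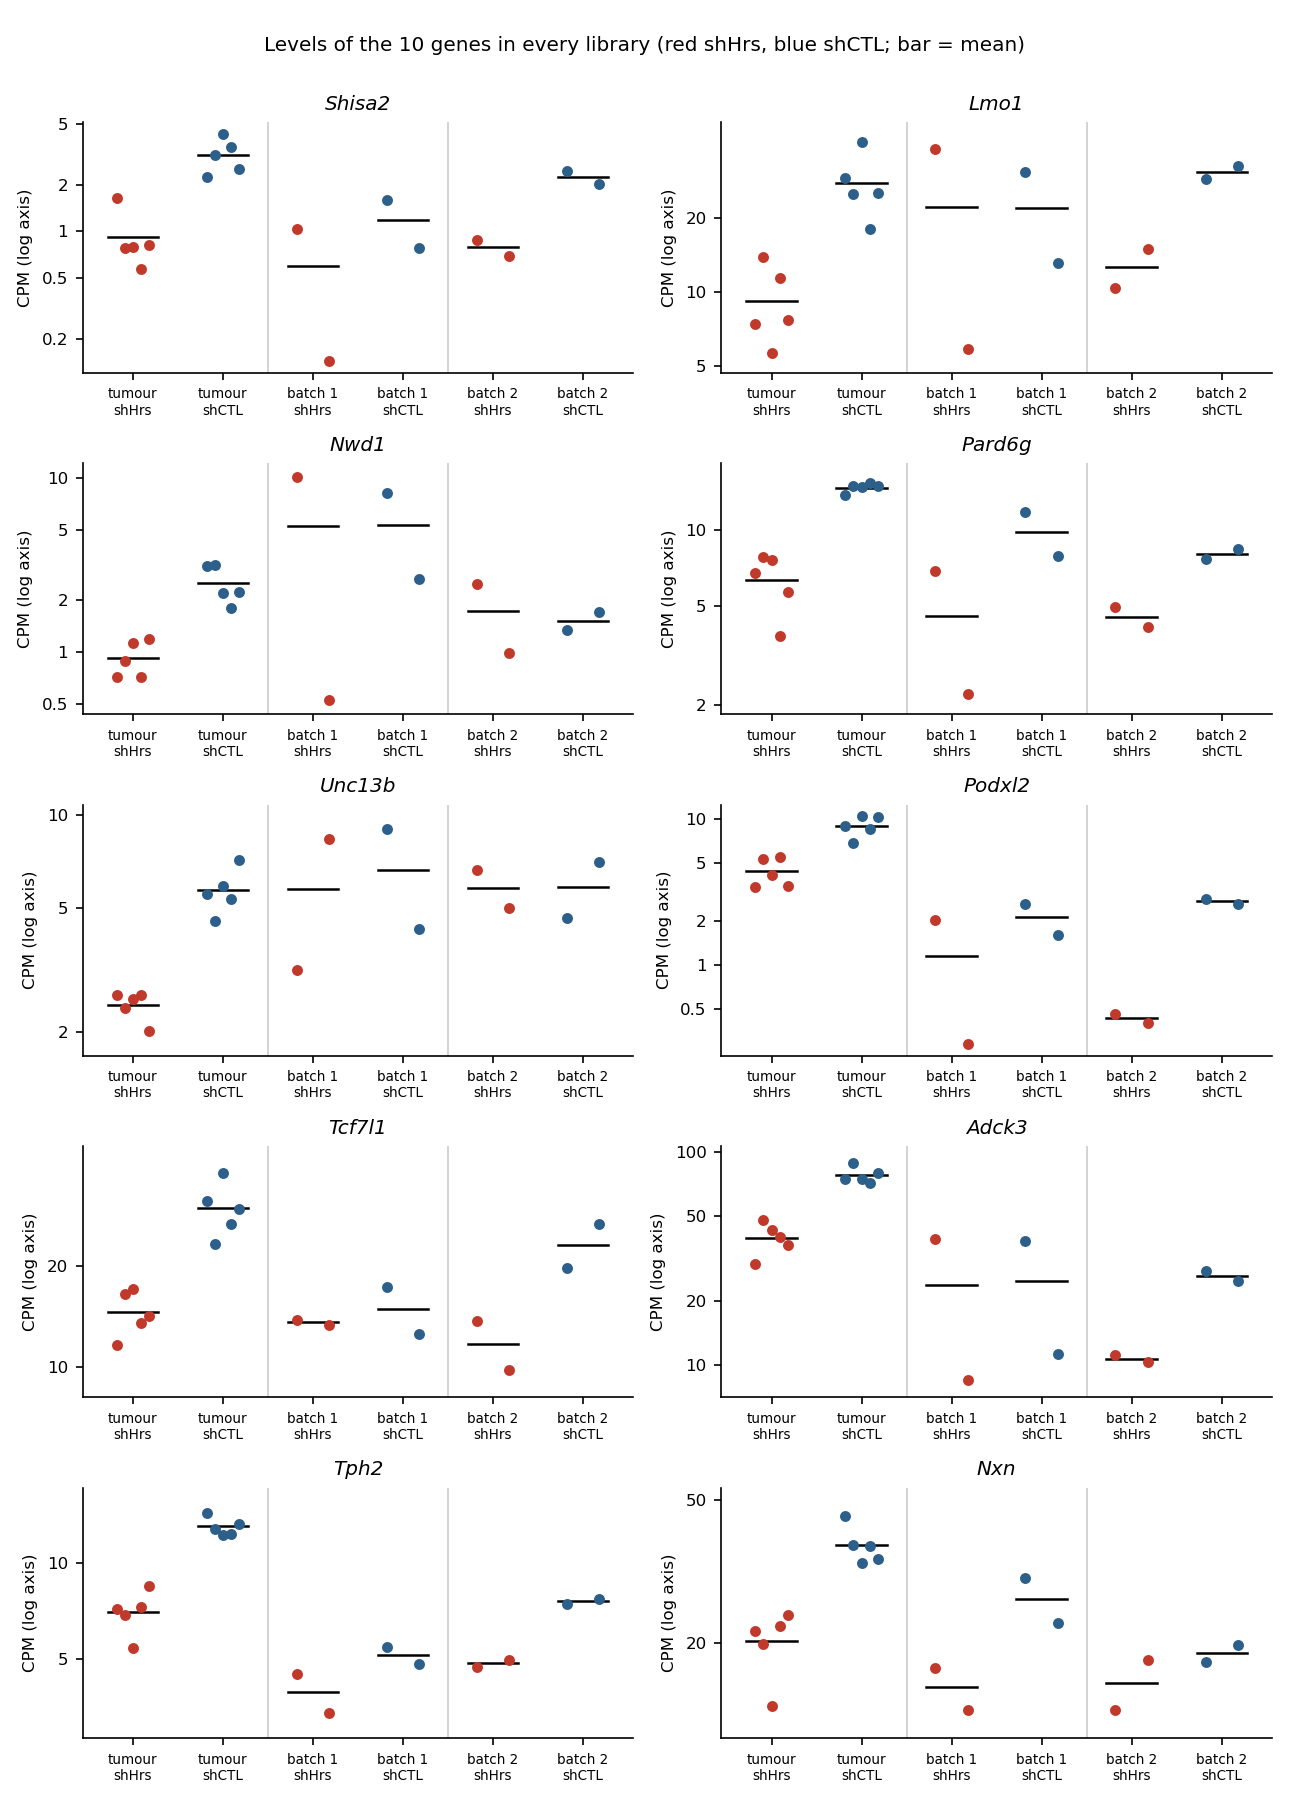
Levels of the 10 genes in CPM on a log axis, 1 panel a gene, for shHrs (red) and shCTL (blue) tumours, batch 1 cultures and batch 2 cultures. Each point is a library and each bar a group mean; in tumours no red point reaches a blue one, while batch 1 libraries of a group lie far apart for genes such as Nwd1 (10.1 and 0.528 CPM with shHrs).

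In the fit of all 8 cultures, edgeR's quasi-likelihood test called 0 of the 10 genes in batch 1, where it called 0% of all genes, and 0 in batch 2, where it called 2.43% lower. In batch 2 DESeq2 called 2 of the 10 (7.91% of all genes lower), and edgeR on that batch's own 4 libraries called 6 (18% of all genes lower). In batch 2, levels were lower in both shHrs cultures than in both shCTL cultures for 7 genes (37.1% of all genes), with Podxl2 (-2.65) and Tcf7l1 (-0.99) nearest to the threshold. Batch 1 gave a median fold change of -0.29 that moved with single libraries, and large differences between replicates. Nwd1 and Unc13b had fold changes near 0 in both batches, with wide errors (SE 1.07 and 1.12 for Nwd1, 0.55 in each batch for Unc13b). Such values do not show that an effect was absent.

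In batch 2, Podxl2 stood at 0.464 and 0.401 CPM with shHrs, against 2.86 and 2.61 CPM with shCTL, a fold change of -2.65 (SE 0.82, adjusted p = 0.0877, edgeR's quasi-likelihood test). Tcf7l1 stood at 13.7 and 9.74 CPM with shHrs, against 19.7 and 26.6 CPM with shCTL (-0.99, SE 0.31, adjusted p = 0.0919, edgeR). Both genes were lower in each shHrs culture than in each shCTL culture of the batch, as in tumours. Shisa2 stood at 0.882 and 0.693 CPM with shHrs, against 2.49 and 2.03 CPM with shCTL (-1.52, SE 0.77, adjusted p = 0.238, edgeR). Lmo1 stood at 10.4 and 15 CPM with shHrs, against 28.9 and 32.6 CPM with shCTL (-1.29, SE 0.74, adjusted p = 0.288, edgeR). Adck3 stood at 11.0 and 10.3 CPM with shHrs, against 27.5 and 24.8 CPM with shCTL (-1.29, SE 0.72, adjusted p = 0.273, edgeR). These 3 genes also separated completely, with standard errors above 0.7 that include the spread in batch 1.

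Pard6g stood at 4.92 and 4.12 CPM with shHrs, against 7.65 and 8.39 CPM with shCTL in batch 2 (-0.83, SE 0.51, adjusted p = 0.321, edgeR). Tph2 stood at 4.69 and 4.96 CPM with shHrs, against 7.47 and 7.73 CPM with shCTL (-0.66, SE 0.33, adjusted p = 0.232, edgeR). Both were separated between the groups. Nxn overlapped, at 13.1 and 17.9 CPM with shHrs and 17.8 and 19.8 CPM with shCTL. So did Unc13b, at 6.64 and 5.00 CPM with shHrs and 4.65 and 7.03 CPM with shCTL, and Nwd1, at 2.46 and 0.985 CPM with shHrs and 1.34 and 1.70 CPM with shCTL. The fold changes of these last 3 genes were -0.28 (SE 0.29), -0.01 (SE 0.55) and 0.17 (SE 1.12).

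Over all 12897 genes tested in batch 2, edgeR called 2.43% lower and 1.60% higher, and 0 when any batch 2 library was left out. At an unadjusted p under 0.05 it was 2 genes, Podxl2 and Tcf7l1, against 14.9% of all genes in the lower direction. DESeq2 called these 2 genes, at a background of 7.91% of genes called lower, and limma voom 0. The 7 genes with complete separation compare with 37.1% of all genes separated in the lower direction in that batch. Fold changes were negative for 9 of 10 genes, against 52.7% of all genes, with a median of -0.91 against -0.05. That count includes Unc13b at -0.01. It was 8 of 10 with DESeq2, with no low-count filter or on the batch's own 4 libraries, and 10 of 10 with limma voom. When batch 2 was fitted on its own 4 libraries, 6 of the 10 genes were called lower, at a background of 18%. These were Podxl2 (-2.63, adjusted p = 0.000344), Adck3 (-1.27, adjusted p = 0.000881), Lmo1 (-1.26, adjusted p = 0.00126), Tcf7l1 (-0.96, adjusted p = 0.0110), Shisa2 (-1.50, adjusted p = 0.0117) and Pard6g (-0.80, adjusted p = 0.0396).

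In batch 1, Pard6g stood at 6.89 and 2.21 CPM with shHrs, against 11.9 and 7.87 CPM with shCTL (-1.12, SE 0.52, adjusted p = 0.553, edgeR). Nxn stood at 17.1 and 13.1 CPM with shHrs, against 30.4 and 22.8 CPM with shCTL (-0.81, SE 0.29, adjusted p = 0.484, edgeR). Tph2 stood at 4.48 and 3.36 CPM with shHrs, against 5.46 and 4.80 CPM with shCTL (-0.38, SE 0.33, adjusted p = 0.727, edgeR). These 3 genes were the ones with complete separation, beside 16.8% of all genes. Shisa2 overlapped, at 1.04 and 0.144 CPM with shHrs and 1.61 and 0.781 CPM with shCTL, and the lowest of these values rests on 3 counts. Podxl2 overlapped too, at 2.02 and 0.288 CPM with shHrs and 2.63 and 1.62 CPM with shCTL, and its lowest value rests on 6 counts.

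The other 5 genes had fold changes close to 0 in batch 1, from -0.20 to 0.01, with standard errors from 0.31 (Tcf7l1) to 1.07 (Nwd1). Lmo1 stood at 38.2 and 5.90 CPM with shHrs, against 30.7 and 13.2 CPM with shCTL (0.01, SE 0.73). Adck3 stood at 39.1 and 8.44 CPM with shHrs, against 38.3 and 11.2 CPM with shCTL (-0.06). In both genes the shHrs values lay outside the shCTL values on either side. The same held for Nwd1, at 10.1 and 0.528 CPM with shHrs and 8.16 and 2.62 CPM with shCTL. Unc13b stood at 3.17 and 8.40 CPM with shHrs, against 8.99 and 4.30 CPM with shCTL, and Tcf7l1 at 13.8 and 13.3 CPM with shHrs, against 17.3 and 12.6 CPM with shCTL. EdgeR called 0 of the 10 genes in batch 1 and 0% of 12897 genes, with 1 of the 10 genes (Nxn) and 1210 of all genes at an unadjusted p under 0.05 (5.95% of genes in the lower direction). Fold changes were negative for 9 of 10 genes, against 49.4% of all genes. That count was 5 of 10 without shCTL replicate 1 of the batch and 7 of 10 without shHrs replicate 2. The median of -0.29 became -1.72 without shHrs replicate 1 and -0.15 without shHrs replicate 2. It was -0.09 without shCTL replicate 1 and -0.65 without shCTL replicate 2. With limma voom it was -0.66, and with the replicate number as a block -0.60. DESeq2 called 0 of the 10 and limma voom 0.

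**Figure D2:**
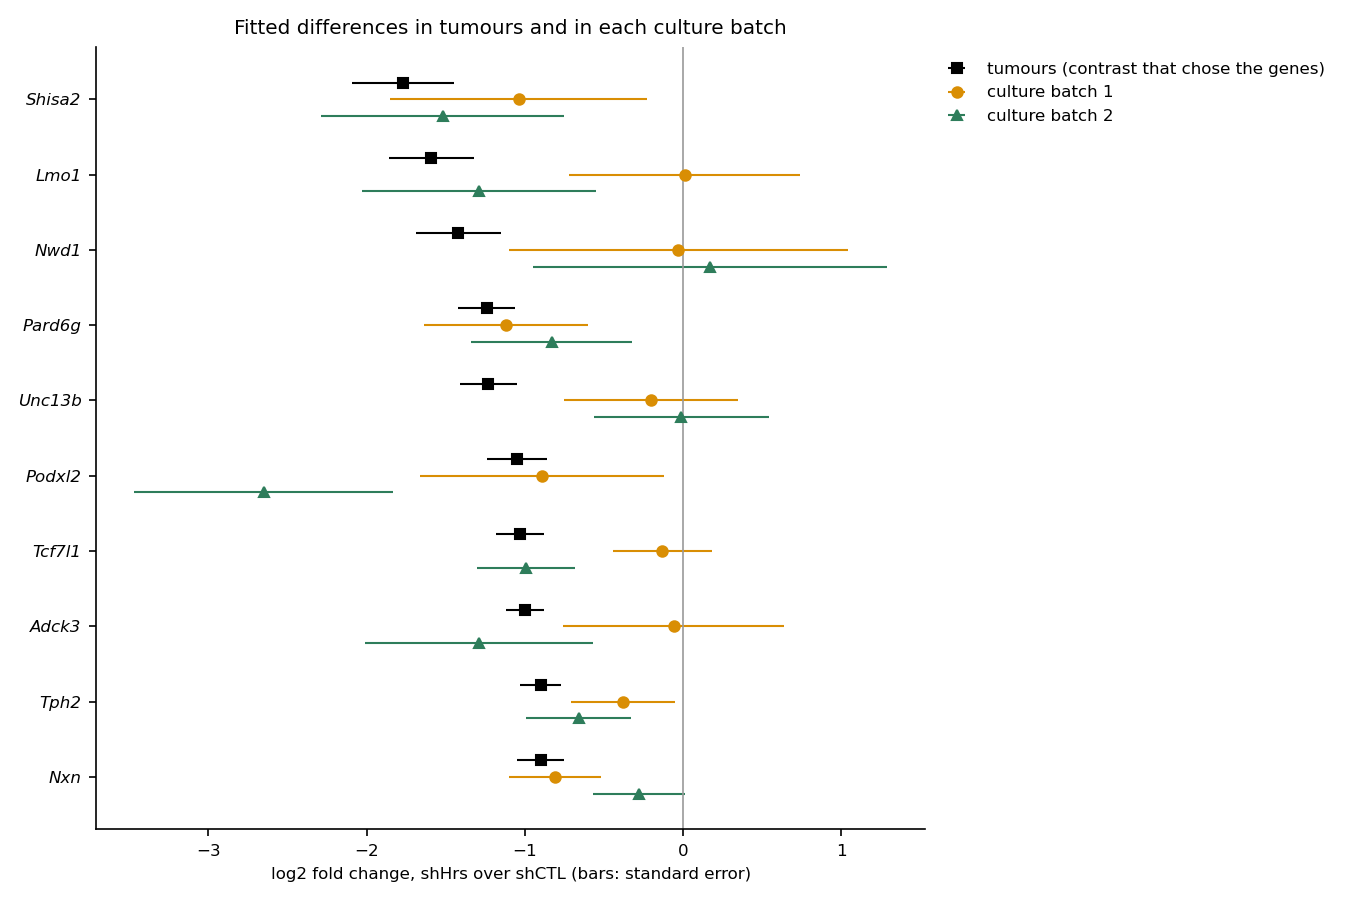
Fitted log2 fold changes of shHrs over shCTL with their standard errors, for each of the 10 genes in tumours (black squares), culture batch 1 (orange circles) and culture batch 2 (green triangles). Tumour values run from -1.77 to -0.90 by choice of the genes; batch 2 values reach -2.65 for Podxl2 and lie at -0.01 for Unc13b and 0.17 for Nwd1.

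Over both batches, with batch as a term, edgeR called 0 of the 10 genes and 0% of 12617 genes, with 4 of the 10 and 1680 of all genes at an unadjusted p under 0.05 (7.59% of genes in the lower direction). DESeq2 and limma voom called 0 of the 10. Fold changes were lowest for Podxl2 (-1.74, SE 0.64, adjusted p = 0.339), Shisa2 (-1.29, SE 0.56, adjusted p = 0.372) and Pard6g (-0.97, SE 0.37, adjusted p = 0.339) by edgeR. Fold changes were negative for 9 of the 10 genes, against 51.7% of all genes, and the median was -0.60 against -0.02 (-1.11 without batch 1 shHrs replicate 1). Shisa2, Pard6g, Podxl2, Tph2 and Nxn were lower with shHrs in all 4 comparisons of libraries with the same batch and number, which was the case for 11.2% of all genes. The numbers were not taken to pair the samples, so these matches rest on the numbers alone. Without them, Pard6g and Tph2 were separated in both batches, while Shisa2 and Podxl2 overlapped in batch 1 and Nxn in batch 2. Taken alone, batch 1 separated 16.8% of all genes in the lower direction and batch 2 37.1%. The share of all genes separated in both batches was not counted. The difference between the batches' effects did not pass the test for any of the 10 genes (edgeR, adjusted p between 0.313 and 0.956, 0 at an unadjusted p under 0.05, beside 10.6% of genes in the lower direction), where 0.132% of genes were called higher and 0.0233% lower. DESeq2 and limma voom called 0 of the 10 for that difference.

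Replicates of batch 1 were far apart for these genes. With shHrs, the higher library was 3.88-fold above the lower one in the median of the 10 genes, from 1.04-fold (Tcf7l1) to 19.2-fold (Nwd1), against a median of 1.42-fold over all genes. With shCTL the median was 1.84-fold, against 1.27-fold over all genes. The gap was over 2-fold for 7 of the 10 genes with shHrs (24.2% of all genes) and for 5 with shCTL (13.8% of all genes). In batch 2 the medians of the 10 genes were 1.30-fold with shHrs and 1.12-fold with shCTL, and the gap was over 2-fold for 1 gene with shHrs (Nwd1, beside 5.50% of all genes) and for 0 with shCTL (beside 4.76%). Replicate 1 of batch 1 was the higher one for 9 of the 10 genes with shHrs, the exception being Unc13b, and for all 10 with shCTL. Among all genes replicate 1 was higher for 50.5% with shHrs, for 50.4% with shCTL and for 27.2% with both shRNAs. Melanocyte-lineage markers moved the same way, with a sum of 20906 CPM in replicate 1 and 8209 CPM in replicate 2 with shHrs, and of 16043 CPM in replicate 1 and 9910 CPM in replicate 2 with shCTL. Their part in the gap was not tested.

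Without shHrs replicate 1 of batch 1, edgeR called 4 of the 10 genes lower in that batch, at a background of 6.67%. These were Nwd1 (-3.34, adjusted p = 0.0410), Podxl2 (-2.87, adjusted p = 0.0340), Pard6g (-2.16, adjusted p = 0.0165) and Lmo1 (-1.89, adjusted p = 0.0352). Each library was left out in turn, and the batch 1 median of the 10 genes was -1.72 here but -0.15 without shHrs replicate 2. With replicate 1 out, the lone shHrs library left is assumed to vary like the other groups. In the same fit Lmo1, Podxl2 and Tcf7l1 were called lower in batch 2 (background 10.9%), and over both batches Podxl2 was (-2.70, adjusted p = 0.0327, background 0.840%). Without shHrs replicate 2 of batch 1, Lmo1, Podxl2 and Tcf7l1 had -1.29, -2.65 and -0.99 in batch 2. The batch 2 median of the 10 genes was then -0.91.

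**Figure D3:**
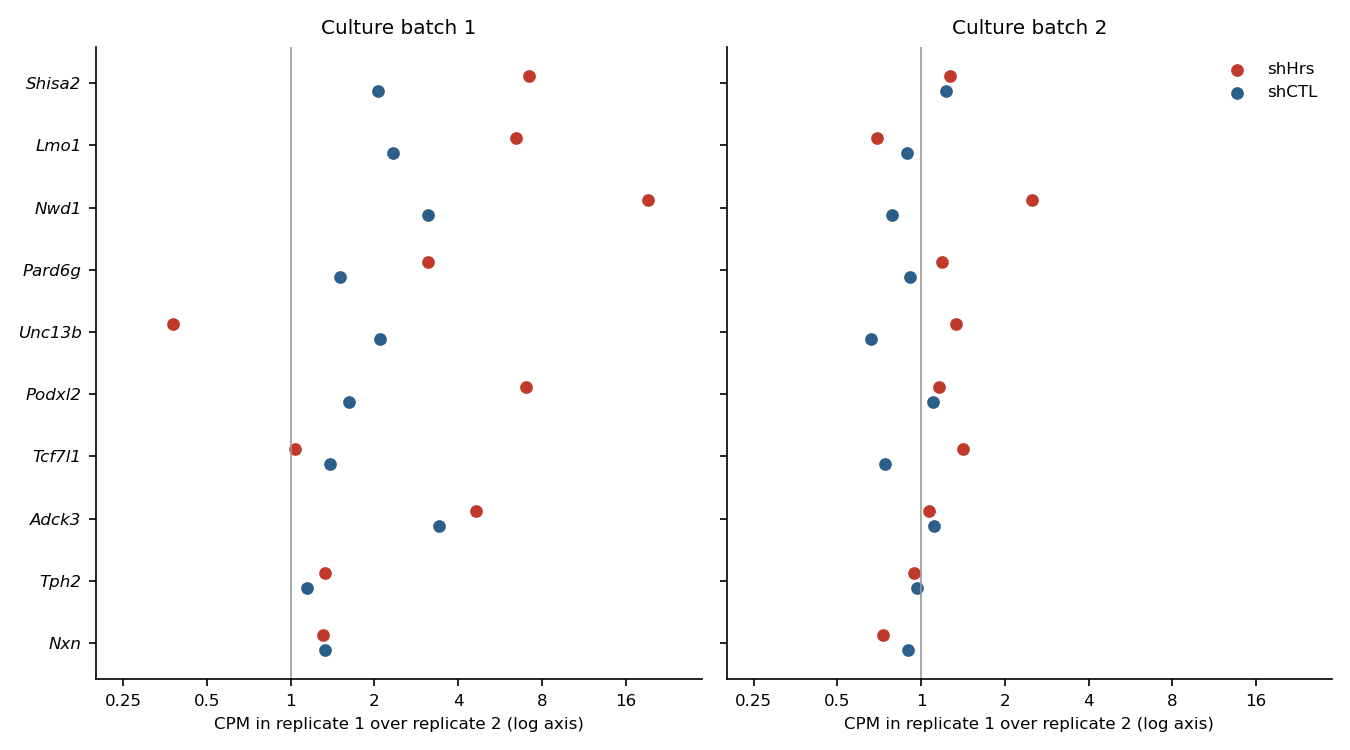
CPM of replicate 1 over replicate 2 on a log axis for the 10 genes in culture batch 1 (left) and batch 2 (right), with shHrs in red and shCTL in blue; the grey line marks equal levels. In batch 1 points lie to the right of the line except Unc13b with shHrs (0.378), up to 19.2 for Nwd1; in batch 2 they lie on both sides.

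Levels in tumours and cultures are set side by side without a test, since the labels do not say that they were sequenced together. Podxl2 was at 3.45 to 5.52 CPM in shHrs tumours and 0.288 to 2.02 CPM in shHrs cultures, and at 6.89 to 10.4 CPM in shCTL tumours and 1.62 to 2.86 CPM in shCTL cultures. Tph2 was likewise above all cultures of its shRNA in all tumours, a pattern found for 20.0% of genes with shHrs and 22.4% with shCTL. Pard6g, Adck3 and Nxn were above all cultures in the shCTL tumours but overlapped them with shHrs. Adck3, for one, was at 29.8 to 47.9 CPM in shHrs tumours and 8.44 to 39.1 CPM in shHrs cultures, while shCTL tumours had 71.9 to 89.0 CPM and shCTL cultures 11.2 to 38.3 CPM. Unc13b had 2.01 to 2.63 CPM in shHrs tumours, all below the 3.17 to 8.40 CPM of shHrs cultures. Its shCTL tumours, at 4.54 to 7.17 CPM, lay within the 4.30 to 8.99 CPM of shCTL cultures. The share of all genes with all tumours below the cultures was not counted. The genes were chosen for shHrs tumours below shCTL tumours. Contrasts between the shRNAs, as for Unc13b, Pard6g, Adck3 and Nxn here, thus restate that choice in part.

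Genes that work with the 10 were read from 10 lists with 240 genes, of which 176 were tested in tumours. EdgeR called 0 of them in tumours, with a median fold change of 0.00 and a lowest adjusted p of 0.0535. At an unadjusted p under 0.05 there were 41 of the 176, against 1868 of all 13215 genes tested. DESeq2 called 8 (Ddc, Fzd6, Lrp5, Shisa4, Ssbp4, Stx3, Syt11 and Txndc5), among 521 genes in all, and limma voom 0. The share of all genes with a negative fold change in tumours was not counted, and their median was 0.01. Of 42 Wnt receptors, Dishevelled proteins and TCF factors, 29 had a negative fold change (median -0.07). Of 20 polarity genes 13 did (median -0.04), of 33 vesicle priming and exocytosis genes 11 (median 0.09), and of 17 coenzyme Q genes 8 (median 0.01). Of 24 thioredoxin-fold genes 14 did (median -0.01), and the smaller lists had medians from -0.04 to 0.33. The lists were written with earlier results of these data known.

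Among the closest relatives of the members that were tested in tumours, Shisa4 had the lowest adjusted p, with a fold change of 0.50 (SE 0.12, adjusted p = 0.0971, edgeR). Tcf7, a TCF factor like Tcf7l1, averaged 12.1 ± 2.00 CPM in shHrs tumours and 17.6 ± 4.69 CPM in shCTL tumours (SD, n = 5 each), with overlap (-0.54, SE 0.19, adjusted p = 0.217, edgeR). Tcf7l2 had a fold change of -0.21 (SE 0.09, adjusted p = 0.334, edgeR). Of the PAR6 scaffolds, Pard6a had 0.13 and Pard6b -0.12, and of the Munc13 proteins, Unc13a had 0.03 and Unc13d 0.70 (SE 0.32, adjusted p = 0.347, edgeR). The sialomucin Podxl had 0.24, the LIM-only genes Lmo2 and Lmo4 had 0.91 and -0.10, and the mitochondrial kinase-like Adck4 had 0.09. Shisa5 had 0.21 and thioredoxin Txn1 had 0.02. Lef1, Tph1, Th, Shisa3 and Nwd2 did not pass the filter on low counts in tumours. Tph1, the tryptophan hydroxylase of peripheral tissues, averaged 0.142 CPM in shHrs tumours and 0.138 CPM in shCTL tumours.

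Ddc, the decarboxylase that follows Tph2 in serotonin synthesis, had the lowest fold change of the list genes (-1.45, SE 0.37, adjusted p = 0.111, edgeR). It averaged 0.526 ± 0.253 CPM in shHrs tumours and 1.44 ± 0.213 CPM in shCTL tumours (SD, n = 5 each), without overlap, and was singled out after its values were seen. In batch 2, edgeR called 1 list gene lower and 5 higher of 171 tested, beside 2.43% of all genes lower and 1.60% higher, and 0 when any batch 2 library was left out. Csnk1e, a kinase of Dishevelled, fell (-1.50, SE 0.26, adjusted p = 0.0280). Higher with shHrs were the polarity genes Llgl2 (1.27, SE 0.27, adjusted p = 0.0427) and Inadl (1.40, SE 0.29, adjusted p = 0.0410), Syt11 (1.56, SE 0.30, adjusted p = 0.0342), Gata2 (1.46, SE 0.30, adjusted p = 0.0396) and Txn1 (1.39, SE 0.31, adjusted p = 0.0482). In batch 1 the sign was opposite for Csnk1e (0.45, SE 0.26), Syt11 (-0.75, SE 0.29) and Gata2 (-0.55, SE 0.30). Txn1 lay near 0 in that batch (-0.06, SE 0.30). There Llgl2 had 0.05 and Inadl 0.28. In tumours the sign was opposite to batch 2 for Csnk1e (0.17, SE 0.07) and Inadl (-0.39, SE 0.13), with neither called by edgeR. The tumour values were 0.59 for Syt11, 0.26 for Gata2, 0.11 for Llgl2 and 0.02 for Txn1. In batch 2 DESeq2 called 31 list genes, among 1988 genes in all, and limma voom 6. In batch 1 edgeR called 0 of 171 list genes, and 19 had an unadjusted p under 0.05, beside 1210 of all 12897 genes. DESeq2 called 3 and limma voom 0.

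**Figure D4:**
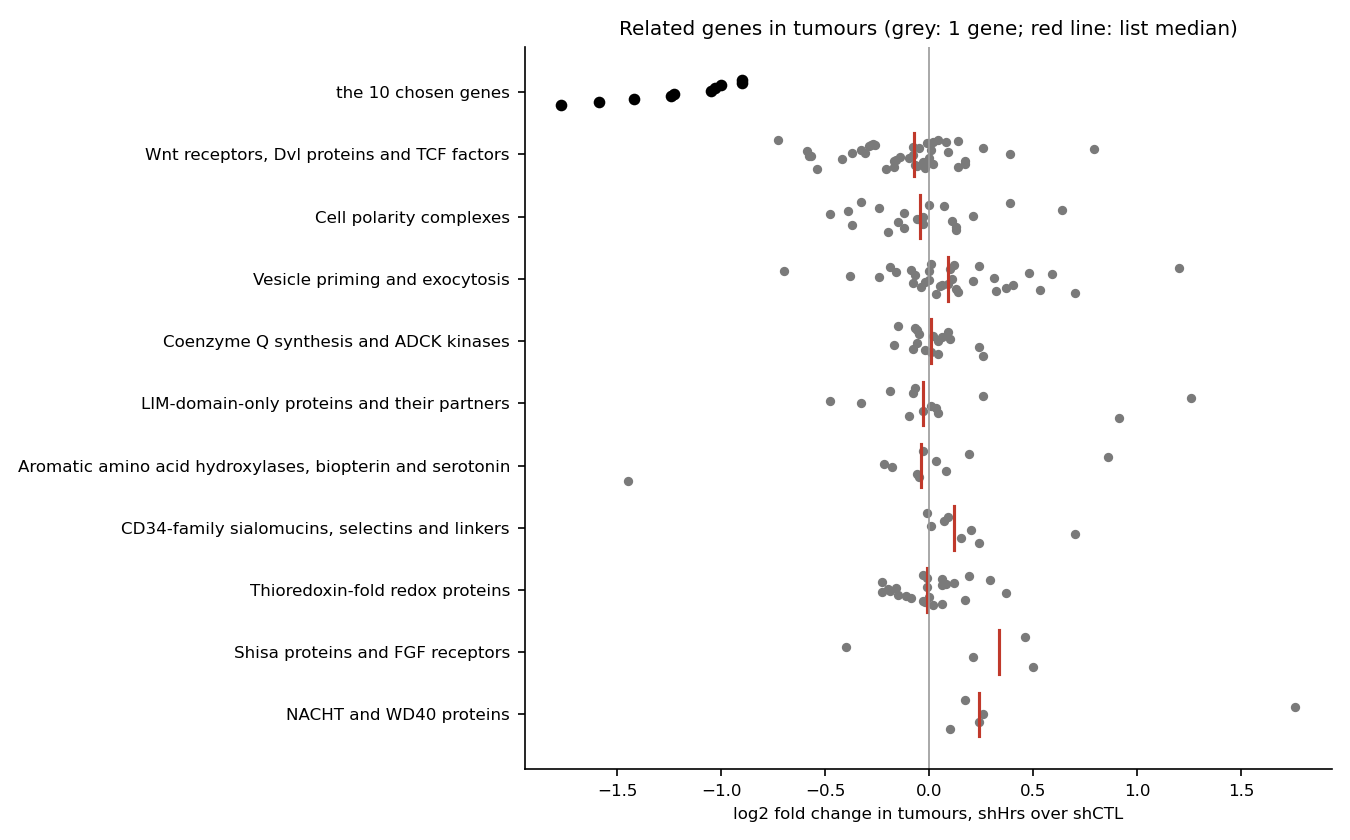
Log2 fold changes in tumours, shHrs over shCTL, for the 10 chosen genes (black, top) and for the tested genes of 10 related lists (grey, 1 point a gene), with each list's median as a red line. List medians lie between -0.07 and 0.33, while the chosen genes run from -1.77 to -0.90; the grey point at -1.45 is Ddc.

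Likeness of pattern was measured as the root mean square difference of centred log2(CPM + 2) over the 6 group means, among 10550 genes. Tcf7 was nearest to Podxl2 (0.14), and it stood at 2.94 CPM with shHrs and 7.18 CPM with shCTL in batch 2 (-1.29, SE 0.39, adjusted p = 0.0854, edgeR). Igf1r was nearest to Unc13b (0.09) and Zfp57 to Tcf7l1 (0.13). Nudt3 was nearest to Shisa2 (0.17), Hoxd13 to Tph2 (0.17), Agbl5 to Nxn (0.17) and Smox to Nwd1 (0.18). Sigirr was nearest to Adck3 (0.21), Lgi4 to Pard6g (0.23) and Tead2 to Lmo1 (0.24). The second nearest were Kif26b for Unc13b (0.11), Nr4a2 for Tph2 (0.17), Pitpnc1 for Shisa2 (0.17), Dcakd for Nxn (0.17), Abca8a for Podxl2 (0.18), Mbtd1 for Tcf7l1 (0.20), Pi4ka for Nwd1 (0.20), Dock10 for Adck3 (0.24), Fam171a1 for Pard6g (0.25) and Sowahc for Lmo1 (0.27). The members' own group means spanned from 0.91 (Unc13b) to 2.66 (Adck3) on this scale, so distances do not compare between members. The measure was taken over the same groups that show the member's own pattern and carries no test.

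The cell make-up of the tumours was read from 12 lists of markers. Melanocyte-lineage markers summed to 21341 to 29589 CPM in shHrs tumours and 21354 to 27042 CPM in shCTL tumours, with 0 of 10 at 0 CPM and 5 of 10 negative. In batch 2 cultures the same markers summed to 4335 to 5201 CPM with shHrs and 11884 to 14381 CPM with shCTL, and 8 of 10 had a negative fold change (median -1.47). Of these 10 markers edgeR called 0 (5 had an unadjusted p under 0.05, beside 3597 of all 12897 genes), DESeq2 4 and limma voom 1. That shift moved with the batch 2 differences of the members, and its part in them was not tested.

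Markers of neurons and Schwann cells summed to 347 to 421 CPM in shHrs tumours and 277 to 326 CPM in shCTL tumours, with no overlap. Of the 7 markers 5 were tested, 0 were negative and 0 called, and Snap25 was at 0 in both groups. The same list summed to 112 to 409 CPM in shHrs cultures and 240 to 601 CPM in shCTL cultures, which hold no host tissue. Most of the tumour sum came from Mbp (mean 263 CPM with shHrs and 203 CPM with shCTL) and Tubb3 (98.1 CPM with shHrs and 85.9 CPM with shCTL). Skeletal muscle markers ran from 22.7 to 832 CPM in shHrs tumours and from 5.25 to 184 CPM in shCTL tumours, and all 7 had a positive fold change (median 2.54, lowest adjusted p = 0.194, edgeR). Erythroid markers ran from 27.9 to 146 CPM in shHrs tumours and from 57.6 to 1853 CPM in shCTL tumours. All 3 that were tested had a negative fold change (median -3.47), namely Hba-a2 (adjusted p = 0.0654), Hbb-bs (adjusted p = 0.0732) and Alas2 (adjusted p = 0.0653) by edgeR, and Hba-a1 was at 0 in both groups. Macrophage markers ran from 218 to 1009 CPM with shHrs and from 39.1 to 595 CPM with shCTL, and fibroblast and pericyte markers from 291 to 1964 CPM with shHrs and from 303 to 3299 CPM with shCTL. Endothelial markers ran from 107 to 197 CPM with shHrs and from 101 to 164 CPM with shCTL. Of 68 markers tested in tumours edgeR called 0, with 10 at an unadjusted p under 0.05 (1868 of all 13215 genes), DESeq2 5 and limma voom 0. The part of any of these cells in the members' differences was not tested. Keratinocyte markers stayed at or under 2.19 CPM in shHrs tumours and 0.331 CPM in shCTL tumours.

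**Figure D5:**
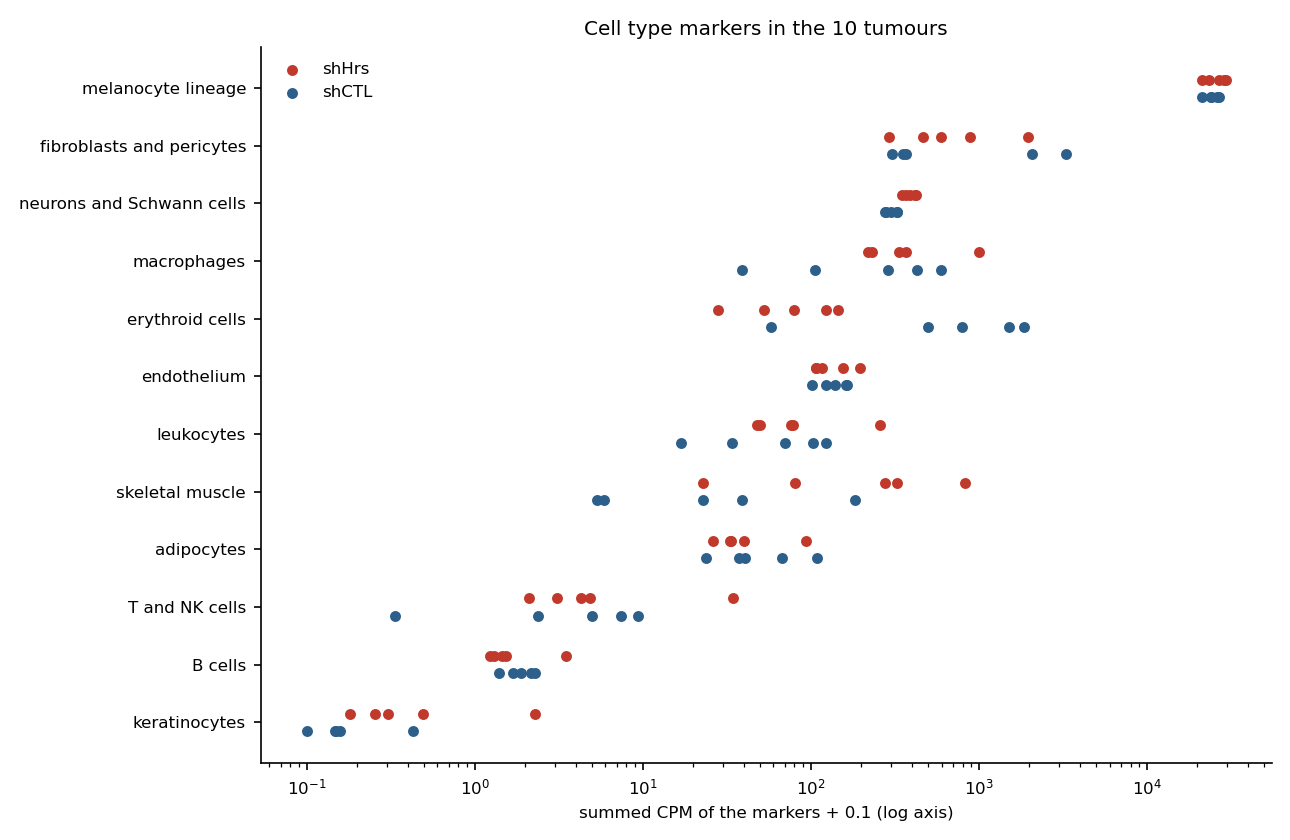
Summed CPM of cell type markers, with 0.1 added, on a log axis in the 10 tumours, shHrs (red) above shCTL (blue) in each list. Melanocyte-lineage markers dominate with 21341 CPM or more in every tumour, and neuron and Schwann cell markers, which cultures also show, are separated, at 347 to 421 CPM with shHrs and 277 to 326 CPM with shCTL.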

How the data were processed

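RNA was sequenced from 10 B16F10 tumours and 8 cultures. The authors deposited raw counts per gene symbol, whole numbers without normalization, for 23453 symbols in 18 libraries, and all columns were used. Per the submitters' processing notes, STAR 2.4.0h2 and DESeq were used with build mm10. The counting tool, its annotation and its use of strand: not given in the sources used here. Replicates differed beyond sampling noise (chi-square per degree of freedom 13.8 to 209), so each was kept.

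In R 4.3.3, genes passing filterByExpr of edgeR 4.0.16 (minimum count 10) were scaled by TMM. They were tested two-sided with edgeR's quasi-likelihood F test and Benjamini-Hochberg adjustment over all genes tested, at a threshold of 0.05. Cultures were fitted together with a mean per batch and shRNA, or with batch as a term, and tumours on their own. SE is the fold change over the root of F. CPM printed as levels come from edgeR on all 18 libraries. Alternatives were DESeq2 1.42.0, limma voom 3.58.1, RLE scaling, no filter, single-batch fits, a replicate block and leaving out each library. The members and the gene lists (22 lists, 327 genes) were chosen with earlier results of these data known. Of the list symbols, 4 were matched by an older name and 3 were absent from the table. Named genes are the 10 members, Hgs, the closest relatives of the members fixed by name, up to 4 called genes a list in tumours, and the 2 genes nearest to each member in pattern. That rule took 0 list genes as called in tumours, so list genes named for batch 2 or by DESeq2, and Ddc, were picked outside it after their values were seen.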

Additional observations from a re-analysis of the deposited data

Results flagged for a closer look

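In shHrs tumours, Shisa2 in replicate 1 stood at 1.65 CPM, while the other 4 tumours of the group were between 0.567 and 0.821 CPM. The gap to its nearest neighbour was past Dixon's limit for a group of 5. Chance alone passes that limit in about 1 of 20 groups, and 20 groups of 5 tumours were examined.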

How the results depend on the processing

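Totals of genes called depended on the processing, and the cause was not tested. In tumours, where edgeR called 72 genes, DESeq2 called 521, and leaving out 1 tumour gave 32 (without shCTL replicate 3) to 158 (without shHrs replicate 4). Without shCTL replicate 1 or 5 or shHrs replicate 1 or 2 it was 37 to 43. Of the members' tumour differences, 25 values moved by more than 1 SD, all of them fitted fold changes or differences with a pseudocount of 0.5 CPM in place of 2. The choice of the members fixed their sign and separation in tumours.

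In batch 1, with 0 genes called by edgeR, no low-count filter gave 438 and DESeq2 219. Leaving out 1 library gave 0 to 1496 genes and 0 to 4 members, the highest without batch 1 shHrs replicate 1. In batch 2, with 520 genes called, no filter gave 2224, DESeq2 1988 and the batch's own 4 libraries 4303, with 3, 2 and 6 members. Leaving out 1 library gave 0 to 2732 genes and 0 to 3 members, the highest when a batch 1 shHrs library was left out, and 0 of both when any batch 2 library was. Over both batches no filter gave 74 genes, DESeq2 301 and limma voom 5, and leaving out 1 library 0 to 164 genes and 0 to 1 member, the highest without batch 1 shHrs replicate 1. For the difference between batches, with 20 genes called, no filter gave 1311, DESeq2 974 and limma voom 13, and leaving out 1 library 0 (any batch 2 library, or batch 1 shCTL replicate 2) to 1968 (batch 1 shHrs replicate 1).

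Same-numbered libraries did not deviate together throughout (correlations from -0.59 to 0.46 in tumours, 0.17 in batch 1 and 0.02 in batch 2), so the numbers were not taken to pair the samples. With the replicate block, 6 genes were called in tumours, 1 of them a member (Adck3), and 1 gene in batch 1. In batch 1 the block gave -0.39 for Lmo1, in batch 2 0.00 for Unc13b, and over both batches -0.40 for Nwd1.

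Signs changed for fold changes that lay between -0.20 and 0.17 as reported. In batch 1 limma voom gave Lmo1 -0.50. In batch 2 it gave Nwd1 -0.01, and Unc13b was 0.02 with no filter, 0.03 with RLE scaling, 0.03 with DESeq2 and 0.02 in the batch's own fit. Over both batches limma voom gave Nwd1 -0.63. Leaving out 1 library, batch 1 values ran from -1.89 to 0.80 for Lmo1, -3.34 to 1.02 for Nwd1, -1.07 to 0.43 for Unc13b, -0.34 to 0.11 for Tcf7l1 and -1.55 to 1.08 for Adck3. Batch 2 values ran from -0.64 to 0.74 for Nwd1 and -0.28 to 0.32 for Unc13b, and values over both batches from -0.92 to 0.51 for Nwd1 and -0.41 to 0.16 for Unc13b. Shisa2, Pard6g, Podxl2, Tph2 and Nxn kept a negative fold change in both batches under all alternatives run. Levels near 1 CPM, as of Shisa2 and Nwd1, rest on few counts, and 2 libraries a culture group limit every culture test.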
